A study of Mus musculus with 18 samples.

Results

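The genes described here encode the subunits of the mitochondrial respiratory chain and of ATP synthase, and they were chosen by symbol: every probe whose annotated symbol begins with Nduf followed by a, b, c, s or v and a digit, with Uqcr, with Cox4 to Cox8, or with Atp5. The rule found 111 probes for 74 genes, and 67 of these genes had a probe detected on at least 1 array, out of 12417 detected genes and 19057 genes with a symbol in all. Complex I (NADH dehydrogenase) was represented by 33 detected genes, complex III (cytochrome bc1) by 6, complex IV (cytochrome c oxidase) by 12 and ATP synthase by 16. The 7 genes Cox4i2, Cox6b2, Cox7b2, Cox8b, Cox8c, Ndufs1 and Uqcrfs1 had no detected probe, and no values are given for them. Each gene was read from its brightest detected probe, and 60 of the 67 genes were detected on all 18 arrays.

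The respiratory chain sits in the inner mitochondrial membrane. Complex I takes electrons from NADH and passes them to ubiquinone. Complex III passes them on to cytochrome c, and complex IV delivers them to oxygen. Complexes I, III and IV pump protons as they do so, and ATP synthase uses the returning protons to make ATP. Most subunits are encoded in the nucleus, and those are the genes measured here. In mouse macrophages, LPS, a component of bacterial outer membranes, is known to move energy production towards glycolysis, whereas IL-4 is known to favour oxidative metabolism.

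The samples were bone marrow-derived macrophages (BMM), cells grown from mouse bone marrow and differentiated in culture. They came from WT mice or from Nur77-KO mice, which lack the nuclear receptor Nur77 (gene Nr4a1) throughout the body, both on a C57BL/6 background. Cells of each genotype were left unstimulated (0 h), or were stimulated for 8 h with LPS at 100 ng/ml or with IL-4 at 50 ng/ml, which gave 6 groups of 3 arrays. According to the labels and methods the cells came from 3 mice of each genotype and were stimulated in triplicate, but which mouse each array came from is not given, so the p-values measure the spread between these arrays, part of which may be technical. The unstimulated cells were taken at 0 h, so the effect of a stimulus and that of 8 h in culture cannot be told apart in the comparisons with them. In RNA of whole cultures, fewer cells of a type and less RNA per cell cannot be told apart either.

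Between 11829 and 16283 probes were detected per array, and the arrays were spread over 6 slides. Probes for Nr4a1 were not detected on any array, so the deleted gene does not check the genotype labels. Nur77-KO LPS replicate 1 and Nur77-KO IL-4 replicate 1 lacked signals that the other Nur77-KO arrays shared. For Npy they read 5.72 and 4.61 (log2) while the 7 further Nur77-KO arrays read 9.88 to 10.69. For the Y-linked gene Eif2s3y they read 4.53 and 4.59, and the further 7 read 8.91 to 9.68. No WT array carried either signal. Xist, a gene expressed in female cells, read 10.45 to 11.44 on the WT arrays and 8.93 to 9.89 on those 7 Nur77-KO arrays. On the 2 arrays that stood apart it read 10.87 and 11.42. Counts and medians over all the genes and over each complex are therefore given for the response of Nur77-KO BMM to LPS with and without these 2 arrays, as are the named genes whose call changed or whose value moved by over 1.5 times without them. No share of all detected genes is given for the fit without them, so a change in a count there cannot be set against all genes. The summed level of macrophage markers was high in every group, between 15.85 and 15.92 (log2) in unstimulated WT BMM and between 16.19 and 16.27 after LPS. Of 9 listed symbols 7 were detected, and Cd68 and Emr1 had no probe. Lyz2 was bright at 14.93 to 15.38, while Itgam was dim at 6.38 to 7.70. In WT BMM Csf1r read 11.91 to 11.96 before and 10.70 to 10.82 after LPS. Cd14 read 11.78 to 12.05 before and 14.13 to 14.31 after, so the sum hides markers that differed in opposite directions. Markers of other cells differed more between groups: the summed level of 7 neutrophil markers was 9.66 to 10.30 in unstimulated WT BMM, 10.98 to 12.30 after LPS, and 11.88 to 12.34 in unstimulated Nur77-KO BMM. Summed levels of the 6 detected stromal markers of 8 were 10.02 to 10.21, 8.59 to 10.93 and 11.77 to 11.99 in the same groups. The part of these cells in the results below was not tested.

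The promoters of the genes are shown next because these genes are transcribed from many places in the genome and largely moved together. RefSeq windows (GRCm38.p6, 250 bases before to 50 bases after the annotated start) were found for 57 of the 67 genes. Motifs were searched on both strands in all 17491 protein-coding genes with such a window. The YY1 motif AAGATGGC occurred in 10 of the 57 windows (17.5%) and in 3.57% of all windows, and 8 of its 9 forward matches lay 22 to 45 bases after the start. The NRF1 motif, GCGCA and GCGC with any base between them, is named for nuclear respiratory factor 1 and occurred in 14 windows (24.6%) against 7.17% of all. The ETS/GABP motif CCGGAAG also occurred in 14 windows (24.6%), against 12.9%. The site that Nur77 binds as a monomer, AAAGGTCA, occurred in none of the 57 windows and in 1.49% of all, and the ERR motif TCAAGGTCA in 1 (1.75%) against 0.377%. The STAT6 motif, TTC and GAA with any 4 bases between them, occurred in 3 windows (5.26%) against 7.37%. Each match is a match of letters and no evidence of binding, and the absence of these letters says nothing about the factor. Below, the bases just before the start are given for genes that the results turn on. Uqcr11, Atp5g2, Cox7a2l and Ndufv3 were among the genes with the largest falls after LPS, Ndufb4 had the smallest p between genotypes among LPS-stimulated cells, and Ndufs4 and Cox5a were the genes that rose. Capitals mark the ETS/GABP match in Uqcr11 (66 to 60 bases before the start) and the NRF1 matches in Atp5g2 and Ndufb4. The other 4 stretches hold no match to the motifs searched, but they end at the start. The Ndufs4 window holds a YY1 match 35 to 42 bases after the start.
Cox7a2l, chr17:83514334-83514433, minus strand: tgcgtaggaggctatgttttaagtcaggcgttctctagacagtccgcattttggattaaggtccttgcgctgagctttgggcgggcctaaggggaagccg
Uqcr11, chr10:80406822-80406921, minus strand: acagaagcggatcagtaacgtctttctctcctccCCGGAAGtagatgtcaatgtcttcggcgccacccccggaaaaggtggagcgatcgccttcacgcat
Atp5g2, chr15:102671048-102671147, minus strand: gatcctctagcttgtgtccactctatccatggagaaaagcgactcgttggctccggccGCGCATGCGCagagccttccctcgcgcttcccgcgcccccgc
Ndufv3, chr17:31520015-31520114, plus strand: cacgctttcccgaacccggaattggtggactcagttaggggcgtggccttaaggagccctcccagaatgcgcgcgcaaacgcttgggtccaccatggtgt
Ndufb4, chr16:37654369-37654568, minus strand: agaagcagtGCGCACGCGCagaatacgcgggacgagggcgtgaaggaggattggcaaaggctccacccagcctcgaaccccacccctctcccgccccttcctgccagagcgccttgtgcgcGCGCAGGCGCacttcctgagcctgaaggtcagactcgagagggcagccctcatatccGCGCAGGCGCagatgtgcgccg
Ndufs4, chr13:114388095-114388194, minus strand: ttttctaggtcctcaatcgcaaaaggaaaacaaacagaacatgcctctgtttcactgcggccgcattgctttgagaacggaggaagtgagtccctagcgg
Cox5a, chr9:57521132-57521231, plus strand: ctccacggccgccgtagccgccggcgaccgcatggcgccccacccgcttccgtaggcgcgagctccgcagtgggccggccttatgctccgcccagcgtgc

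The probes of these genes were bright. Their mean log2 value over the 18 arrays had a median of 11.22, ranged from 5.41 to 14.37 and lay above 11 for 36 genes. The median over all detected genes was 6.65, and 92.2% of them lay below the median of the respiratory genes. Brightness depends on the probe as well as on the RNA, so it does not rank the genes by amount of RNA. The brightest probes were those for Ndufa13 in complex I (13.69), Uqcr10 in complex III (13.09), Cox4i1 in complex IV (13.91) and Atp5b in ATP synthase (14.37). Dim genes were measured with less certainty: Atp5k was detected on 9 arrays, Ndufb11 on 11, Atp5md on 15, Cox7b and Ndufb4 on 16, and Cox7a1 and Ndufb2 on 17. Many of these genes have processed pseudogenes, and the probe annotated as Ndufs5-ps names such a pseudogene of the accessory subunit Ndufs5, so RNA from near-identical copies may have contributed to a signal.

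To find out how LPS changed the respiratory genes, stimulated and unstimulated cells of the same genotype were compared. In WT BMM, 38 of the 67 genes fell and 2 rose at a limma adjusted p under 0.05, whereas 39.8% of all genes were called, 24.3% lower and 15.5% higher. In Nur77-KO BMM 30 genes fell and 1 rose, against 37.8% of all genes called, 23.7% lower and 14.1% higher. The median log2 difference of the 67 genes was −0.51 in WT and −0.36 in Nur77-KO BMM, while over all genes it was −0.06 and −0.08. Values below 0 were found for 60 of the 67 genes in WT and for 58 in Nur77-KO BMM. All 3 LPS arrays lay below all 3 unstimulated arrays for 47 genes in WT (29.3% of all genes) and for 44 genes in Nur77-KO BMM (33.6%). The genes that fell in both genotypes numbered 28, which were 73.7% of those that fell in WT and 93.3% of those that fell in Nur77-KO BMM. Without the 2 Nur77-KO arrays that stood apart, 25 genes fell and 2 rose in Nur77-KO BMM, with a median of −0.32 and no share of all genes given for that fit.

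**Figure D1:**
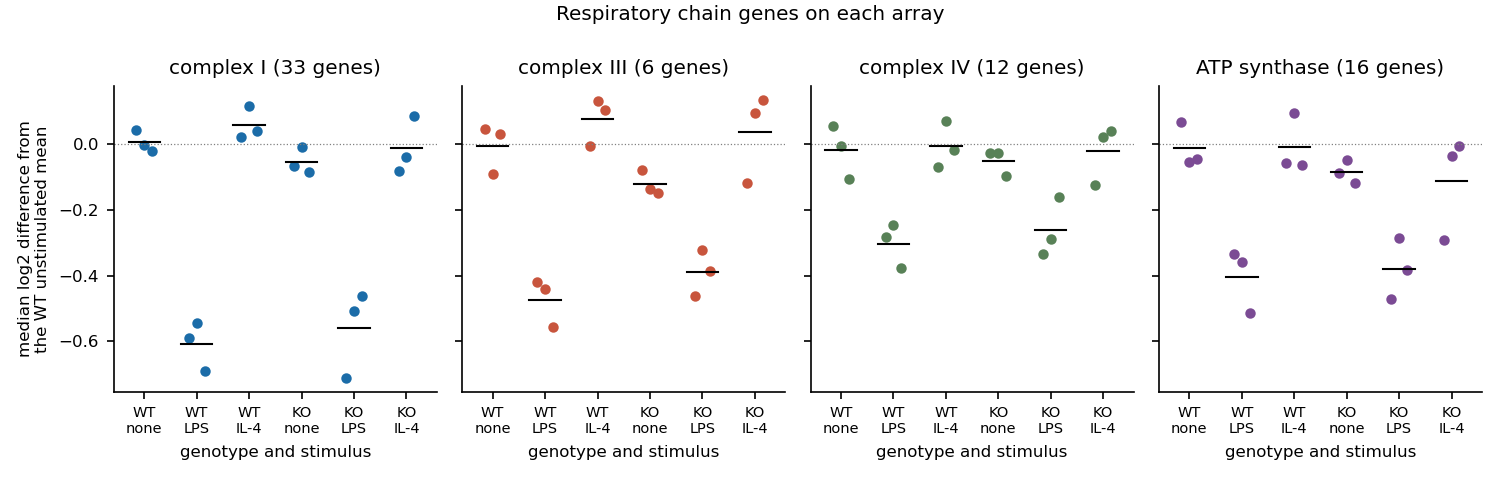
Median log2 difference of the genes of each complex from their mean in unstimulated WT BMM, one point per array, for the 6 groups of 3 arrays. Over all 67 genes the LPS arrays of both genotypes had medians of −0.58 to −0.32 and the IL-4 arrays of −0.12 to 0.11. By this median over all 67 genes the LPS arrays lay below every other array. In ATP synthase, Nur77-KO IL-4 replicate 1 at −0.291 lay below Nur77-KO LPS replicate 2 at −0.287.

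Within complex I, 23 of 33 genes fell and 1 rose in WT BMM (median −0.62), and 17 fell and 1 rose in Nur77-KO BMM (median −0.47), or 13 fell and 1 rose without the 2 Nur77-KO arrays (median −0.35). The core subunits carry the flavin and the iron-sulfur clusters that conduct the electrons, and 4 of the 5 measured core genes fell in each genotype, with medians of −0.74 and −0.72. Ndufs7, which holds the last iron-sulfur cluster before ubiquinone, read 11.52, 11.56 and 11.54 on the unstimulated WT arrays and 10.51, 10.72 and 10.78 on the WT LPS arrays. It read 11.53, 11.44 and 11.55 on the unstimulated Nur77-KO arrays and 10.78, 10.73 and 10.86 on the Nur77-KO LPS arrays. The unstimulated arrays of the genotypes lay within 0.12 of each other and all LPS arrays lay well below them. The difference was −0.87 log2 units in WT (SE 0.11, n = 3 per group, limma adjusted p = 1.09e-05), a 1.83-fold decrease, and −0.72 in Nur77-KO BMM (SE 0.11, limma adjusted p = 8.91e-05). Ndufv1, which binds the flavin that accepts electrons from NADH, differed by −0.74 in WT and −0.72 in Nur77-KO BMM. Its partner in the NADH-oxidising module, Ndufv2, differed by −0.65 and −0.60, and Ndufs8 in the ubiquinone module by −0.76 and −0.72. For Ndufs8 the Nur77-KO value rested on LPS replicate 1, at 9.27 against 10.02 and 9.99, and was −0.47 without the 2 Nur77-KO arrays (limma adjusted p = 0.0201). Ndufs3 was the core gene not called in either genotype, at −0.32 and −0.06.

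Accessory subunits surround the core of complex I and are needed for its assembly or stability. Those at the NADH-oxidising module fell for 6 of 7 genes in WT and 4 of 7 in Nur77-KO BMM, and the remaining change was the rise of Ndufs4 described below. Ndufv3 read 12.24, 12.34 and 12.46 on the unstimulated WT arrays and 11.46, 11.30 and 11.27 after LPS, and fell by 1.00 log2 units (SE 0.16, limma adjusted p = 9.91e-05). In Nur77-KO BMM it read 12.38, 12.55 and 12.30 before and 11.09, 11.32 and 11.73 after LPS, a difference of −1.04 (SE 0.16, limma adjusted p = 8.00e-05). The groups did not overlap in either genotype. Another detected probe for Ndufv3 differed by −1.04 and −0.84, and a probe detected on 12 arrays by 0.40 and −0.06, so the probes of this gene disagreed in WT BMM. Ndufa6 read 12.15, 12.03 and 11.67 before and 10.81, 10.66 and 11.27 after LPS in WT BMM. Its difference of −1.03 (SE 0.18, limma adjusted p = 0.000181) was the largest in complex I in WT, and in Nur77-KO BMM it was −0.58 (limma adjusted p = 0.0158), not called without unstimulated replicate 2 or LPS replicate 2.

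In the membrane arm, which holds the proton pumps, 11 of 18 accessory genes fell in WT and 8 in Nur77-KO BMM, with medians of −0.63 and −0.45. Ndufb8, a subunit often used to follow assembled complex I, read 13.13, 13.13 and 13.40 on the unstimulated WT arrays and 12.48, 12.44 and 12.11 on the WT LPS arrays. In Nur77-KO BMM the values were 13.19, 13.33 and 13.47 before and 11.99, 12.43 and 12.64 after LPS. The lowest of the 12 values came from Nur77-KO LPS replicate 1, an array that stood apart. The difference was −0.88 in WT (limma adjusted p = 0.000788) and −0.98 in Nur77-KO BMM (SE 0.18, limma adjusted p = 0.000320), or −0.80 without the 2 Nur77-KO arrays. Ndufb10 differed by −0.88 and −0.83, and the brightest gene of the complex, Ndufa13, by −0.66 and −0.76. Ndufb4 was near the detection limit, with values of 6.42, 7.10 and 6.63 before and 5.59, 5.87 and 5.91 after LPS in Nur77-KO BMM, a difference of −0.93 (SE 0.26, limma adjusted p = 0.00946) that was not called without unstimulated replicate 2. In WT BMM its LPS arrays read 6.43, 6.92 and 5.94 and overlapped the unstimulated arrays at 6.89, 6.56 and 6.71. Ndufb11 was not detected on any WT LPS array, which read 5.65, 5.28 and 4.89. It was detected on 2 unstimulated WT arrays (6.74 and 6.79), while unstimulated replicate 2 read 5.18, so the groups overlapped. The fitted change was not called (limma adjusted p = 0.0544).

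In complex III, 3 of 6 genes fell in each genotype, with medians of −0.47 in WT and −0.23 in Nur77-KO BMM, and none rose. The same 3 genes were involved, the small subunits Uqcr11 and Uqcr10 and the hinge protein Uqcrh, which binds cytochrome c1. Without the 2 Nur77-KO arrays 2 genes fell and 1 rose there (median −0.18), Uqcrh no longer passing at −0.37 (limma adjusted p = 0.0562). Uqcr11 read 12.36, 12.30 and 12.38 on the unstimulated WT arrays and 11.26, 11.28 and 11.31 on the WT LPS arrays. Each set of replicates lay within 0.1 of its own members while the difference between the sets was −1.06 (SE 0.17, limma adjusted p = 8.26e-05). In Nur77-KO BMM the values were 12.11, 12.22 and 11.95 before and 10.97, 11.56 and 11.61 after LPS, a difference of −0.71 (limma adjusted p = 0.00278). Uqcr10 fell by 0.80 in WT and by 0.63 in Nur77-KO BMM. The core proteins Uqcrc1 and Uqcrc2 were not called, at −0.05 and −0.38 in WT BMM. Uqcrq, whose product binds ubiquinone near the b cytochrome, was at 0.29 and 0.27 and was not called. It was the gene that rose in Nur77-KO BMM when the 2 arrays were left out, at 0.53 (limma adjusted p = 0.0163).

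Complex IV had 4 of 12 genes that fell and 1 that rose in WT BMM (median −0.32), and 3 that fell in Nur77-KO BMM (median −0.23, or −0.19 with 3 that fell without the 2 Nur77-KO arrays). As shares of 12 genes these counts are set against 24.3% and 23.7% of all genes called lower, and the Nur77-KO count lies near that background. The largest fall of all 67 genes in WT BMM was that of Cox7a2l, a relative of subunit 7A that takes part in joining complexes III and IV into supercomplexes. Its values were 11.67, 11.60 and 11.71 on the unstimulated WT arrays and 10.39, 10.46 and 10.36 on the WT LPS arrays. The difference was −1.26 log2 units (SE 0.14, limma adjusted p = 2.30e-06), a 2.39-fold decrease with no overlap of arrays. In Nur77-KO BMM it went from 11.41, 11.49 and 11.53 to 10.24, 10.56 and 10.72, a difference of −0.97 (SE 0.14, limma adjusted p = 3.90e-05), and of −0.84 without the 2 Nur77-KO arrays. Ndufa4, named after complex I but a subunit of complex IV, read 12.86, 12.86 and 12.88 before and 12.32, 12.28 and 12.39 after LPS in WT BMM, a difference of −0.54 (SE 0.17, limma adjusted p = 0.0215). In Nur77-KO BMM its difference was −0.46 (limma adjusted p = 0.0477), a call that held in 14 of 32 alternative settings and was lost under cyclic loess and without most single arrays, those of other groups included. In WT BMM it held in 26 of 32 and was lost without unstimulated replicate 1 or 3 or LPS replicate 1 or 2. Cox6c, a small membrane subunit, was called lower in Nur77-KO BMM at −0.56 and not in WT at −0.34, and the call was lost without Nur77-KO LPS replicate 1 or unstimulated replicate 2.

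Several complex IV subunits exist as a ubiquitous isoform and an isoform typical of heart and skeletal muscle, and the members of such sets differed. Cox4i1, the ubiquitous subunit 4, read 14.20, 13.92 and 13.95 before and 13.50, 13.73 and 13.49 after LPS in WT BMM, a difference of −0.45 (limma adjusted p = 0.0109) that was no longer called without unstimulated replicate 1, whereas in Nur77-KO BMM it was at −0.29 and not called. Cox6a1, the ubiquitous subunit 6A, fell by 0.32 in WT BMM (limma adjusted p = 0.0350), a call that held in 23 of 32 alternative settings. It was lost without unstimulated replicate 1 or 2 or LPS replicate 1 or 2, and under cyclic loess the difference was 0.05. Its muscle counterpart Cox6a2 stood at 0.08 in WT and 0.18 in Nur77-KO BMM. Cox7a1, the muscle subunit 7A, was at −0.58 and 0.22, where the WT value rested on LPS replicate 3 (5.73 against 6.71 and 6.84) and was −0.22 without it. The ubiquitous Cox7a2 was at 0.26 and 0.06 and Cox6b1 at −0.32 and −0.30. Cox7b was at −0.30 and −0.33, and in WT BMM its sign turned without LPS replicate 3 (4.85 against 6.96 and 6.75), to 0.37, or without unstimulated replicate 3, to 0.06. None of these genes was called. The ubiquitous isoforms therefore included genes that fell and genes that did not pass the test.

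In ATP synthase 8 of 16 genes fell in WT (median −0.33) and 7 in Nur77-KO BMM (median −0.25, or −0.19 with 7 that fell without the 2 Nur77-KO arrays), and none rose. The catalytic subunit Atp5b, the brightest of all the genes, read 14.33, 14.29 and 14.38 before and 14.33, 14.34 and 14.11 after LPS in WT BMM. These arrays overlapped, and the difference was −0.07 (limma adjusted p = 0.744). Of the genes for the F1 head, Atp5c1, the rotor shaft, and Atp5d were called lower in both genotypes (−0.71 and −0.54 for Atp5c1), and the call of Atp5d was lost without unstimulated WT replicate 1 or 3, WT LPS replicate 3 or unstimulated Nur77-KO replicate 2. Among the genes for the c ring and other membrane subunits 4 of 7 fell in each genotype. Atp5g2, which encodes the c subunit of the ring, read 10.09, 10.69 and 10.59 before and 9.52, 9.40 and 9.27 after LPS in WT BMM. The difference was −1.06 (SE 0.18, limma adjusted p = 0.000177), and in Nur77-KO BMM the change from 10.37, 10.41 and 10.38 to 9.46, 9.57 and 9.74 was a difference of −0.80 (limma adjusted p = 0.00222). Atp5g3 encodes the same mature c subunit, and was at −0.27 in WT and −0.31 in Nur77-KO BMM, where neither was called. The stalk gene Atp5h fell by 0.78 and 0.63. Atp5o, another stalk gene, was called lower in WT BMM at −0.34, but its 2 other probes had the opposite sign, and the call held in 19 of 32 alternative settings.

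**Figure D2:**
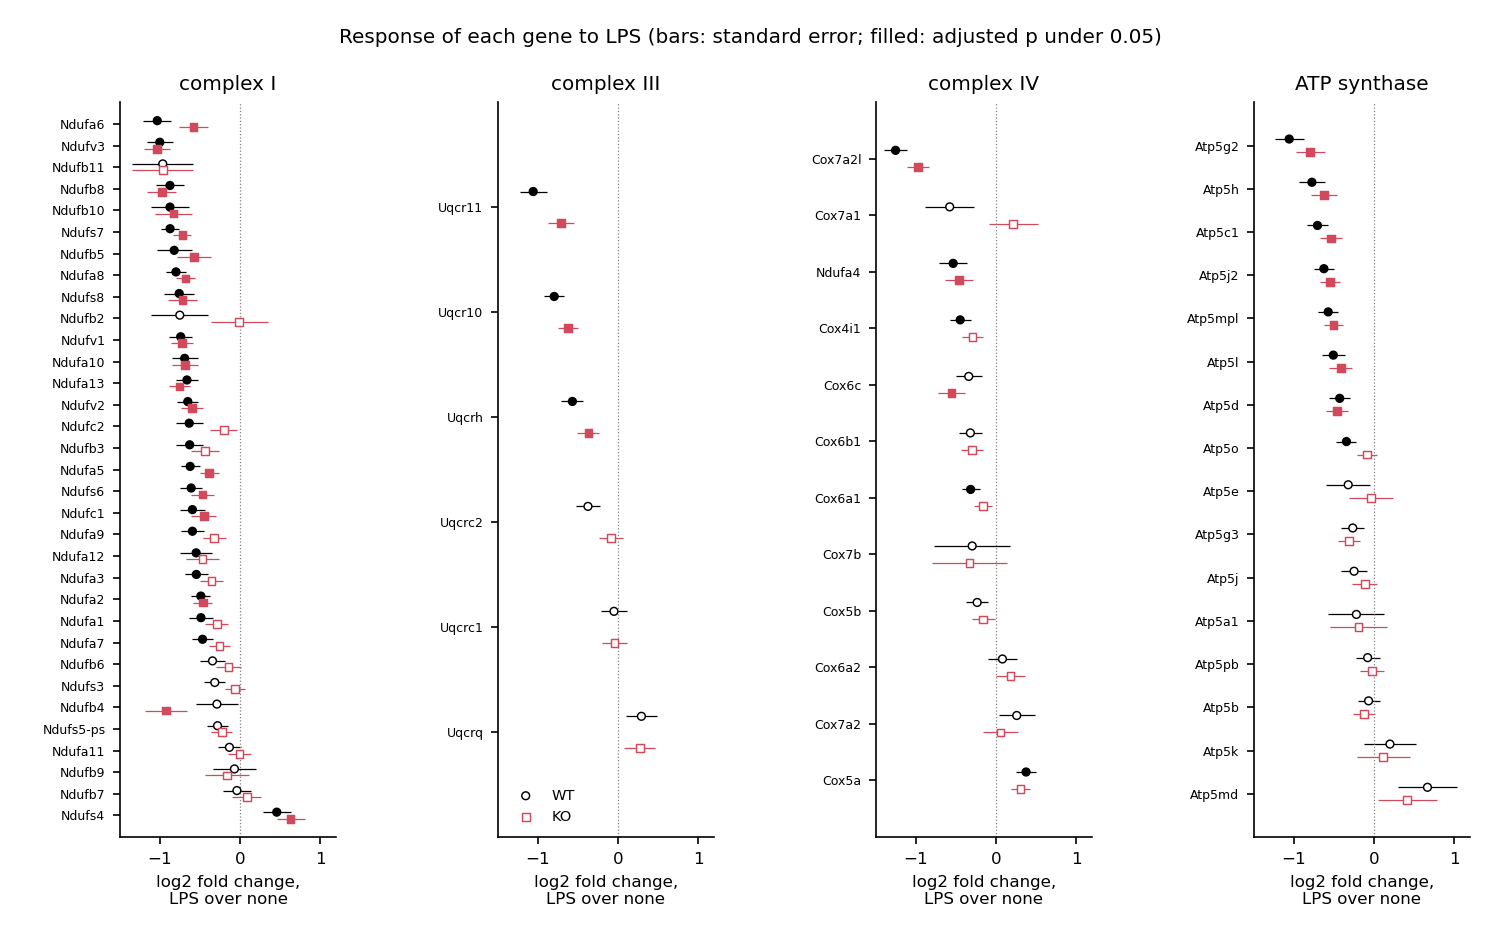
Log2 difference between LPS-stimulated and unstimulated BMM for each of the 67 genes, ordered within its complex, for WT and Nur77-KO BMM, with bars of 1 SE and filled symbols for genes at a limma adjusted p under 0.05. Most points lie left of 0, from −1.26 for Cox7a2l in WT, and Ndufs4 and Cox5a are the called genes to the right of 0.

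Ndufs4 and Cox5a went the other way. Ndufs4, an accessory subunit that stabilises the NADH-oxidising module and whose loss causes complex I deficiency in mice, read 10.88, 10.74 and 10.84 on the unstimulated WT arrays and 11.22, 11.34 and 11.28 after LPS. The rise was 0.46 (SE 0.18, limma adjusted p = 0.0477). In Nur77-KO BMM it read 10.71, 10.54 and 10.54 before and 11.06, 11.27 and 11.35 after LPS, a rise of 0.63 (SE 0.18, limma adjusted p = 0.00884), and of 0.72 without the 2 Nur77-KO arrays. All LPS arrays lay above all unstimulated arrays in both genotypes. All 4 detected Ndufs4 probes were higher after LPS, by 0.46 to 0.62 in WT and by 0.33 to 0.63 in Nur77-KO BMM. The call in WT BMM was near the threshold and held in 14 of 32 alternative settings, against 30 of 32 in Nur77-KO BMM. Cox5a, a subunit on the matrix side of complex IV, read 12.48, 12.36 and 12.61 before and 12.88, 12.78 and 12.92 after LPS in WT BMM, a rise of 0.38 (SE 0.12, limma adjusted p = 0.0206). This call held in 26 of 32 alternative settings and was lost without unstimulated replicate 1 or 2 or LPS replicate 1 or 3. In Nur77-KO BMM it read 12.55, 12.44 and 12.76 before and 12.89 on each LPS array, which was 0.31 higher and not called (limma adjusted p = 0.0571).

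**Figure D3:**
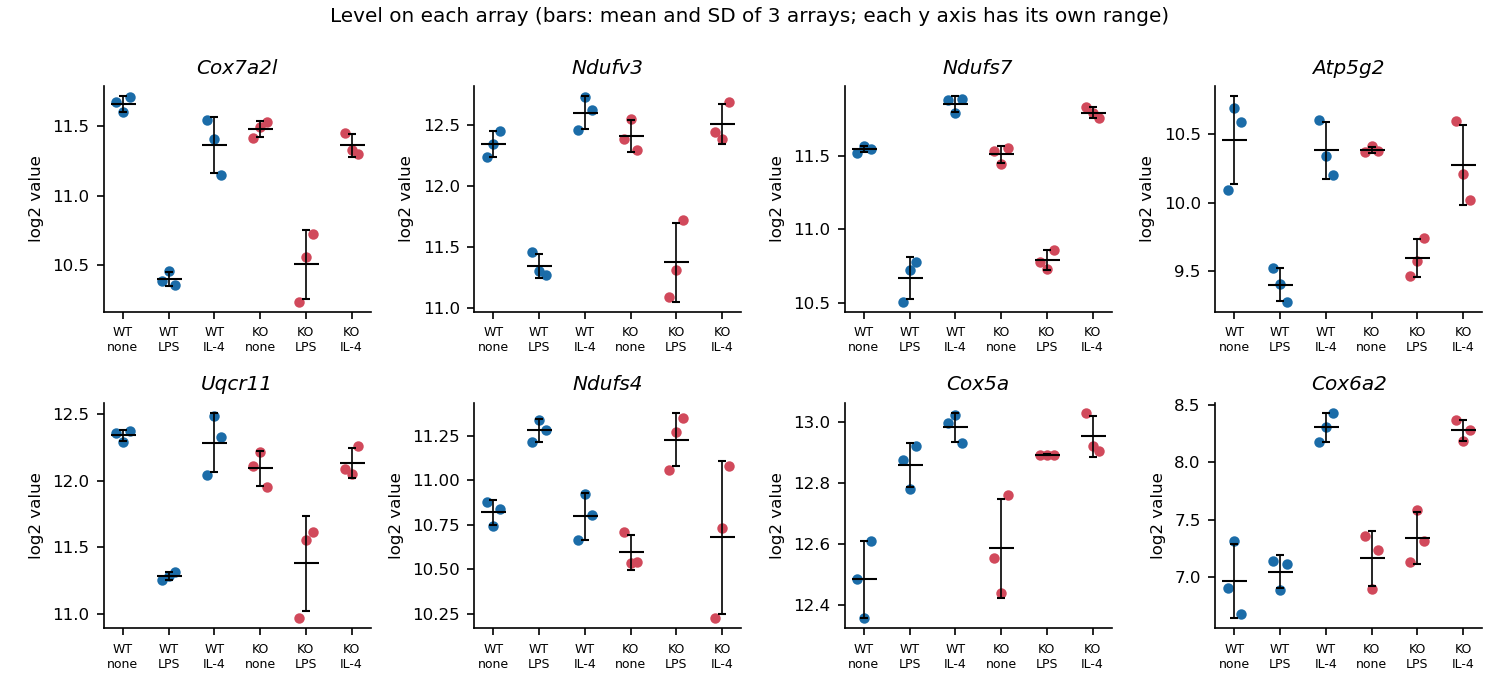
Log2 value of 8 genes on each of the 18 arrays, with the mean and SD of each group of 3, and a different vertical range in each panel. Cox7a2l, Ndufv3, Ndufs7, Atp5g2 and Uqcr11 are lowest in the LPS groups of both genotypes, Ndufs4 is highest there, Cox5a is higher in both stimulated conditions, and Cox6a2 is highest in the IL-4 groups.

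For 15 of the genes called after LPS in WT BMM there were 19 other detected probes, of which 16 had the same sign (7 called) and 3 the opposite sign, in Atp5o and Ndufv3. In Nur77-KO BMM all 14 other probes of 11 called genes had the same sign, and 5 were called. A YY1, NRF1 or ETS/GABP match in the promoter window was present in 15 of 26 windows of genes that fell in both genotypes (57.7%) and in 18 of 31 windows of the other genes (58.1%), against 21% of all windows.

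Because the probes were bright, the size of the LPS effect was also read against genes of like brightness and with other ways of scaling the arrays. After quantile normalization, all 1442 genes with a mean log2 value of 10 to 12 had a median of −0.29 after LPS in WT BMM and 42.4% of them were called lower. The 28 respiratory genes in this range had a median of −0.59, and 20 fell. Above 12, the 551 genes had a median of −0.35 with 45.9% called lower, and the 22 respiratory genes a median of −0.52 with 16 that fell. In Nur77-KO BMM the medians of all genes in these ranges were −0.28 and −0.34, and 40.6% and 45.7% of them were called lower. The medians of the respiratory genes were −0.41 and −0.46. Of these, 13 of 28 fell in the range of 10 to 12, near the share of all genes, and 14 of 22 above 12. In these brighter ranges genes were thus lower after LPS in general, and the medians of the respiratory genes lay further below 0. Dimmer respiratory genes did not share this in both genotypes. Between 8 and 10, the 7 respiratory genes had medians of −0.13 in WT and −0.01 in Nur77-KO BMM, against −0.24 and −0.21 for all genes. Between 6 and 8, the 9 respiratory genes had −0.30 and −0.04, against −0.18 and −0.22. Cyclic loess scaling, which removes a dependence on brightness, brought the medians of all genes in the brighter ranges to within 0.02 of 0. It called 17 of the 67 genes lower and 2 higher in WT, and 12 lower and 2 higher in Nur77-KO BMM. Of all 12417 genes, 2510 and 2662 were called lower, and 2174 and 2296 higher. Between 10 and 12, 9 and 5 of the 28 respiratory genes fell, against 28.8% and 27.5% of all genes. Above 12, 5 and 4 of the 22 fell, against 21.2% and 21.1%. Under this scaling the counts of bright respiratory genes lay near or below the shares of all genes. The median of the 67 genes was then −0.21 and −0.09, and 48 and 40 genes lay below 0. Median scaling called none of the genes in WT and 8 lower in Nur77-KO BMM, against 1275 and 3058 lower of all 12417 genes. It moved the median of all genes to −0.14 and −0.46 and raised the median SE of a WT comparison from 0.16 to 0.45, and the medians of the respiratory genes were −0.40 and −0.79. The direction of the median was thus the same under all 3 scalings, while the number of genes called and the size of the fall were not.

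**Figure D4:**
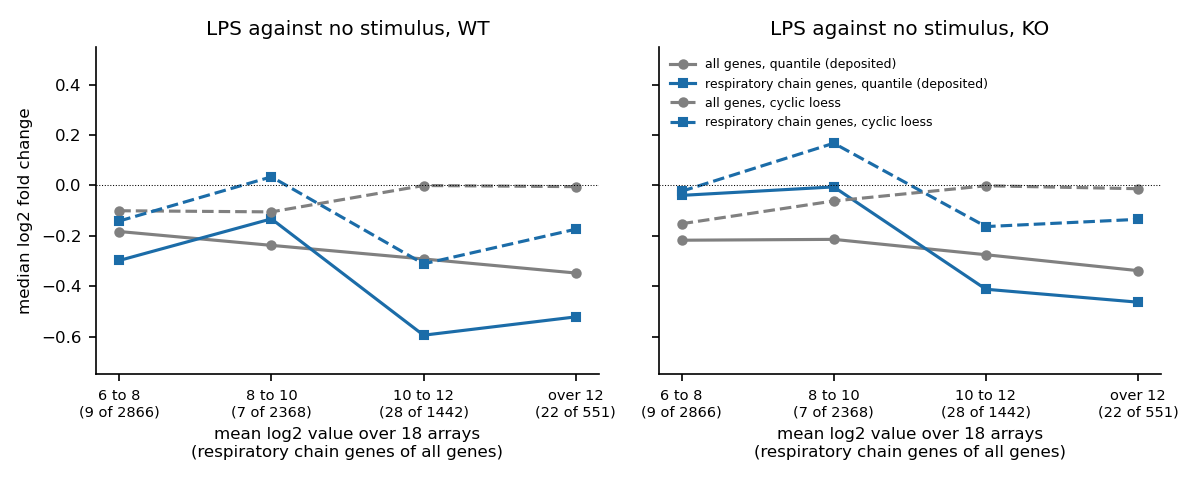
Median log2 difference after LPS of the respiratory genes and of all genes, by the mean log2 value of the gene, for WT and Nur77-KO BMM under quantile and cyclic loess scaling. With quantile scaling all genes above 10 have medians of −0.35 to −0.28 and the respiratory genes there of −0.59 to −0.41. With cyclic loess all genes above 10 lie near 0 and the respiratory genes there between −0.31 and −0.13. In the ranges from 6 to 10, the cyclic loess medians are −0.15 to −0.06 for all genes and −0.14 to 0.17 for the respiratory genes.

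IL-4, given for the same time, left most of these genes near their unstimulated values. In WT BMM 2 of 67 genes rose and none fell, against 6.76% of all genes called, 3.68% higher and 3.08% lower, with a median of 0.03. In Nur77-KO BMM 1 gene rose and none fell, against 5.55% called, 3.12% higher and 2.42% lower, with a median of 0.05. The gene called in both genotypes was Cox6a2, the muscle isoform of subunit 6A, which is dim in these cells. It read 6.90, 7.31 and 6.67 on the unstimulated WT arrays and 8.18, 8.31 and 8.43 after IL-4, a rise of 1.34 (SE 0.18, limma adjusted p = 0.000190), or 2.54-fold. In Nur77-KO BMM it went from 7.35, 6.89 and 7.23 to 8.37, 8.18 and 8.28, a rise of 1.12 (SE 0.18, limma adjusted p = 0.00106), and of 1.07 without the 2 Nur77-KO arrays. LPS arrays of both genotypes stayed between 6.88 and 7.58, so the rise belonged to the IL-4 groups. The ubiquitous Cox6a1 was at 0.15 and 0.03 after IL-4 and was not called.

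The other gene that rose with IL-4 in WT BMM was Cox5a, which read 13.00, 13.02 and 12.93 after IL-4, a rise of 0.50 (SE 0.12, limma adjusted p = 0.0189). In Nur77-KO BMM it read 13.03, 12.92 and 12.91 and was 0.37 higher (limma adjusted p = 0.105). Leaving out unstimulated WT replicate 1 or 2, or WT IL-4 replicate 2, ended the call in WT BMM. WT IL-4 replicate 1, WT LPS replicate 3, Nur77-KO LPS replicate 1 and Nur77-KO IL-4 replicate 1 lay farther from their group means than the other arrays. Each stimulated group thus held 1 such array and the unstimulated groups held none. Without these 4 arrays 6 genes were called with IL-4 in WT BMM and 1 in Nur77-KO BMM, with no share of all genes given for that fit. On slides that held an unstimulated and an IL-4 array of the same genotype, the median of the 67 genes was −0.07 and 0.12 for the WT pairs and −0.04 for the Nur77-KO pair.

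The stimulated states were then set against each other, since both were sampled at 8 h. LPS and IL-4 arrays of the same genotype differed in 42 genes lower and 2 higher with LPS in WT BMM, against 38.4% of all genes called, 23.4% lower and 15.1% higher, with a median of −0.47. In Nur77-KO BMM 32 genes were lower and 1 higher, against 36.8% called, 23% lower and 13.8% higher, with a median of −0.38. Without the 2 Nur77-KO arrays, 22 genes were lower and none higher there, with no share of all genes given for that fit. These comparisons share the LPS arrays with the comparisons above. By complex, the WT counts were 23 lower and 1 higher of 33 in complex I, 5 called of 6 in complex III, 5 of 12 in complex IV, and 9 lower and 1 higher of 16 in ATP synthase. Within slides, where an effect of the slide cancels, the WT pair had a median of −0.59 with 58 of 67 genes below 0, and the 2 Nur77-KO pairs had medians of −0.38 and −0.35 with 57 genes below 0 in each. No slide held LPS and unstimulated arrays of the same genotype.

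Ndufs7 had the smallest adjusted p in both genotypes, reading 11.88, 11.79 and 11.88 with IL-4 and 10.51, 10.72 and 10.78 with LPS in WT BMM. The difference was −1.18 (SE 0.11, limma adjusted p = 4.08e-07), and in Nur77-KO BMM the level was 2.01-fold lower with LPS (limma adjusted p = 2.70e-06). Ndufv3 differed by −1.26 in WT and −1.13 in Nur77-KO BMM, Ndufb8 by −1.01 and −0.97, and Cox6a2 by −1.26 and −0.94. Uqcr11 was among the 5 largest decreases in WT BMM, 2.01-fold lower, and Ndufs8 in Nur77-KO BMM at −0.87. Higher with LPS was Ndufs4, at 0.48 in WT (limma adjusted p = 0.0393), a call that held in 22 of 32 alternative settings and was lost without any of the 3 WT LPS arrays or without WT IL-4 replicate 1 or 3. Its difference in Nur77-KO BMM was 0.55, where its IL-4 arrays at 10.23, 10.73 and 11.08 overlapped its LPS arrays, and 0.32 and not called without Nur77-KO IL-4 replicate 1. Atp5md, a small membrane subunit of ATP synthase that is dim here, was also higher in WT BMM, reading 7.10, 7.43 and 6.77 with LPS and 6.40, 6.30 and 5.47 with IL-4. The difference was 1.05 (SE 0.37, limma adjusted p = 0.0323) and was not called without WT LPS replicate 1 or 2 or WT IL-4 replicate 3.

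Finally the genotypes were compared, to see whether loss of Nur77 went with a change in the respiratory genes. The sex-linked genes Eif2s3y and Xist also differed between the genotypes. Effects of genotype and of the sex of the cells therefore cannot be told apart here. None of the 67 genes passed the test in unstimulated cells, where 0.105% of all genes were called, with LPS (0.193%) or with IL-4 (0.0403%). At an unadjusted limma p under 0.05, 0 of the 67 genes were counted in unstimulated cells, 1 with LPS and 0 with IL-4. Of all 12417 genes, 628, 1040 and 587 were counted in the same comparisons. The medians of Nur77-KO minus WT were −0.07, 0.03 and −0.09, and without the 2 Nur77-KO arrays 0.11 with LPS and −0.06 with IL-4. Values above 0 were found for 18, 41 and 14 of the 67 genes, and for 6230, 6250 and 6448 of all 12417 genes. The gene with the smallest p in unstimulated cells was Ndufa5, an accessory subunit next to the ubiquinone module. It read 10.49, 10.34 and 10.63 in WT and 10.19, 10.24 and 10.30 in Nur77-KO BMM, which did not overlap. The difference was −0.24 with a 95% interval of ± 0.25 (limma adjusted p = 0.977). Ndufc2 followed at −0.29 ± 0.36 and Atp5l at −0.23 ± 0.31. Each interval includes 0 and also lower values than its estimate, so equal expression was not shown.

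With LPS the gene at an unadjusted p under 0.05 was Ndufb4, whose values are given above and whose WT and Nur77-KO LPS arrays did not overlap. The difference was −0.64 ± 0.55 (95% interval, limma adjusted p = 0.495), and −0.54 without the 2 Nur77-KO arrays. Ndufs3 followed at 0.24 ± 0.27 and Ndufa3, a small membrane arm subunit, at 0.26 ± 0.30. With IL-4 the smallest p belonged to Uqcrc1, a core protein of complex III, at −0.30 ± 0.34 (limma adjusted p = 0.999), followed by Ndufa5 at −0.22 and Cox6a1 at −0.20. On slides that held both genotypes, the median of the 67 genes was −0.05 and −0.10 in unstimulated cells, 0.22 with LPS and −0.24 and 0.01 with IL-4. The IL-4 pair at −0.24 included Nur77-KO IL-4 replicate 1.

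The counts of genes that fell with LPS were smaller in Nur77-KO than in WT BMM, and the difference between the responses was tested directly. None of the 67 genes differed in its response to LPS, against 0.0161% of all genes, nor in its response to IL-4, against 0.00805%. For neither response did any of them reach an unadjusted p under 0.05 in limma, against 561 and 248 of all 12417 genes. The median difference of the LPS responses, Nur77-KO minus WT, was 0.10, with 52 of the 67 genes above 0, while 6167 of all 12417 genes were above 0. Without the 2 Nur77-KO arrays the median was 0.18 with 57 genes above 0. The median difference of the IL-4 responses was −0.01. Cox7a1 had the smallest p for LPS at 0.80 ± 0.91 (95% interval, limma adjusted p = 0.9999), and WT LPS replicate 3 at 5.73 lay more than 0.9 below the others of its group. Ndufc2 followed at 0.43 and Ndufa6 at 0.45. For IL-4 Ndufa12 had the smallest p at −0.32 ± 0.61 (limma adjusted p = 0.9997), followed by Ndufa6 at 0.25 and Ndufb4 at −0.34. The smaller count in Nur77-KO BMM was therefore not accompanied by a difference in response that passed the test for any gene.

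**Figure D5:**
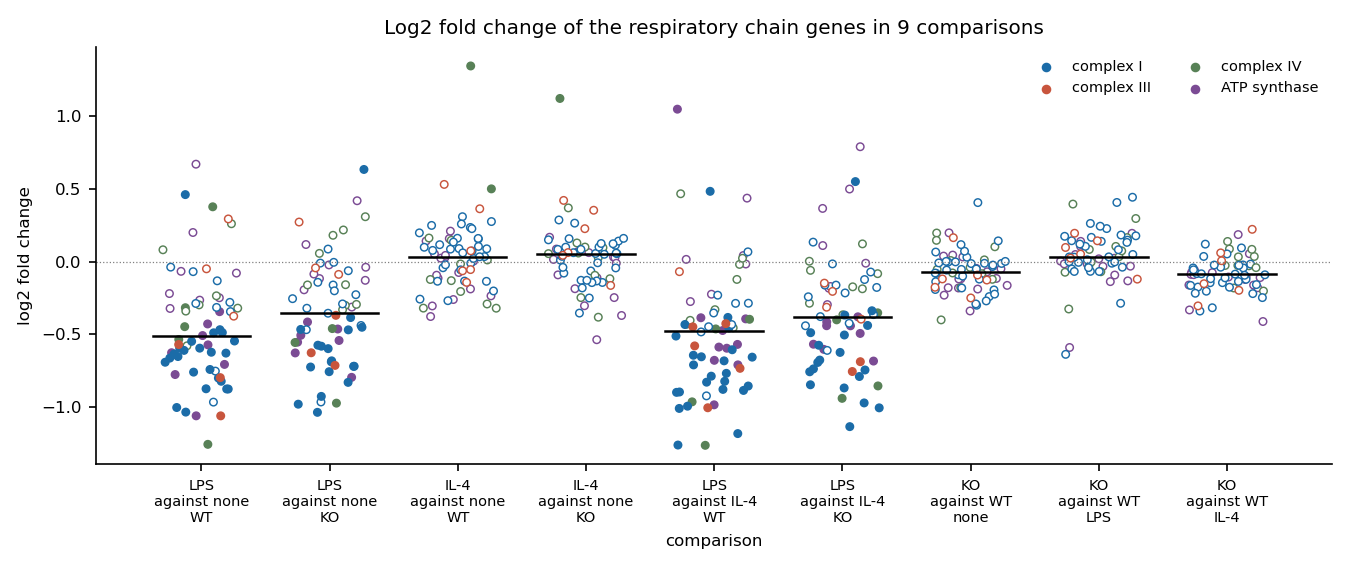
Log2 difference of each of the 67 genes in 9 comparisons of stimuli and genotypes, with filled symbols for genes at a limma adjusted p under 0.05 and a line at the median. The comparisons of LPS with another state have medians of −0.51 to −0.36, and those of IL-4 with unstimulated cells and of the genotypes lie between −0.09 and 0.05.

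Other mitochondrial gene lists place the subunits in their context. Of 40 measured assembly factors, proteins that build the complexes without being part of them, 17 fell and 6 rose with LPS in WT BMM, and 15 fell and 5 rose in Nur77-KO BMM. These counts and those that follow are to be read against 24.3% of all genes called lower and 15.5% higher in WT, and 23.7% and 14.1% in Nur77-KO BMM. Of 73 mitochondrial ribosomal protein genes 32 fell and 3 rose in WT, and 23 fell and 7 rose in Nur77-KO BMM. Among 20 genes for protein import 6 fell in WT and 5 in Nur77-KO BMM, shares near that background, and of the 3 measured complex II genes 1 fell in each. That gene was Sdhb, the iron-sulfur subunit, at −0.45 and −0.53. With IL-4, 3.68% of all genes were called higher in WT and 3.12% in Nur77-KO BMM, and 3.08% and 2.42% lower. No complex II gene was called. Of 17 measured regulators of mitochondrial biogenesis 3 rose in each genotype, and of the 4 electron carriers 1. Of the 73 mitochondrial ribosomal genes 2 and 3 rose, and 1 fell in WT BMM. Import genes that rose numbered 2 and 1 of 20, and assembly factors 0 and 1 of 40.

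The electron carriers split with LPS. Cycs, which encodes cytochrome c, rose by 1.26 in WT and 1.58 in Nur77-KO BMM, whereas Etfdh, which feeds electrons from fatty acid oxidation to ubiquinone, fell by 1.38 and 1.31 and its partner Etfb fell by 0.67 and 0.69. Cycs also rose with IL-4, by 0.85 and 0.77. Of 17 measured regulators of mitochondrial biogenesis 3 rose and 5 fell with LPS in WT BMM, and 3 rose and 6 fell in Nur77-KO BMM. Those that fell included Polrmt, the mitochondrial RNA polymerase, at −0.99 and −1.11, and Pparg, a nuclear receptor of lipid metabolism, at −4.07 and −4.20. Esrra, a nuclear receptor known to act on respiratory genes, rose by 1.23 and 1.12, as did the coactivator gene Pprc1 by 0.99 and 0.97. The packaging factor gene Tfam was at −0.06 and 0.01 and Nrf1 at −0.17 and 0.02, and neither was called. With IL-4 the coactivator gene Ppargc1b rose by 2.20 in WT and 1.55 in Nur77-KO BMM, and Esrra and Pprc1 also rose, while 2 and 1 of the 67 respiratory genes did.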

How the data were processed

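Biotinylated RNA of 18 cultures was hybridised to Illumina MouseWG-6 v2 arrays. The authors exported intensity values and detection p-values per probe (GenomeStudio 2011.1), then corrected background by normexp with control probes, quantile-normalized and took log2 with limma 3.10.2 in R 2.14.0, and deposited these log2 values. They were used here as deposited. Recomputing them from the deposited intensity values and detection p-values (offset 16) changed no value by more than 0.059. Probes were named from the platform annotation: 34885 of 45281 probes had 1 gene symbol, 18 had several and 10378 were not listed. Probes with a detection p under 0.05 on at least 1 array were kept, with the brightest probe for each gene. Group means were fitted to all 18 arrays with limma 3.58.1 in R 4.3.3 for 11 comparisons, with Benjamini-Hochberg adjustment over 12417 genes in each, and the fit was tested on simulated data. The members and gene lists were chosen with earlier results of these data known. Genes named with values were the 5 largest non-overlapping called changes per direction and comparison of stimuli, the 3 smallest p-values between genotypes, the brightest gene of each complex and the isoform sets. Any other gene named was chosen after its values were seen. Alternatives changed the scaling, background correction, detection filter, probe choice, variance prior, arrays fitted and slide terms.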

Additional observations from a re-analysis of the deposited data

How the results depend on the processing

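With LPS the median of the 67 genes stayed below 0 in each of the 32 alternatives, but the number of genes called depended on the scaling. With median scaling the genes called were 0 for LPS against unstimulated WT BMM, 8 for Nur77-KO, 0 and 0 for IL-4, and 1 and 1 for LPS against IL-4. In the same order, 1997, 3627, 70, 102, 1652 and 1845 of all 12417 genes were called. With cyclic loess the LPS counts were 19 and 14, and those of LPS against IL-4 were 25 and 15. Over all genes they were 4684 and 4958 for LPS, and 4512 and 4375 for LPS against IL-4. With slide as a fixed block, LPS in Nur77-KO BMM gave 20 and IL-4 in WT gave 1. With only the groups compared in the fit, LPS against IL-4 gave 29 in WT and 18 in Nur77-KO BMM, and IL-4 in WT gave 1. Without background correction IL-4 gave 4 and 3, with a trended robust prior 2 in Nur77-KO BMM, and without the 4 arrays farthest from their groups, a setting chosen after seeing the data, 6 in WT. Leaving out 1 array at a time, the counts for LPS were 31 to 42 in WT and 22 to 34 in Nur77-KO BMM, for IL-4 1 to 3 and 1 to 1, and for LPS against IL-4 33 to 47 and 23 to 36. Of the 40 genes called with LPS in WT BMM, 2 changed sign in some alternative, Cox6a1, to 0.0491 under cyclic loess (limma adjusted p = 0.778), and Atp5o, to as much as 0.16. Some named genes that were not called also crossed 0, such as Cox7b (−1.07 to 0.37) and Atp5b (−0.23 to 0.28) with LPS in WT BMM. Median scaling ended the calls of Cox7a2l, Uqcr11, Atp5g2, Ndufa6 and Ndufv3 with LPS in WT BMM, and these held in the other 31 of 32 alternatives. Counts between genotypes and between responses were 0 throughout. Among the called shares of all genes, median scaling moved the part called lower with LPS in Nur77-KO BMM from 62.7% to 84.3%, with IL-4 in Nur77-KO BMM from 43.7% to 59.8% and with IL-4 in WT from 45.5% to 30%. Whether the replicate numbers pair the arrays could not be decided. Arrays of the same number in different groups correlated at a mean of 0.058 (−0.318 to 0.524) in their deviations, against −0.020 for arrays of other numbers. Of 18 arrays, 11 correlated best with their own number. With a replicate block the counts were 40 and 30 for LPS, 2 and 1 for IL-4, 43 and 32 for LPS against IL-4, and 0 elsewhere. The number of arrays limits the precision, and genes near the detection limit such as Ndufb4, Ndufb11 and Atp5md are the least certain.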

Other observations

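Some genes outside the symbol rule touch the same complexes and were picked after their values were seen, so their values are descriptions. AA467197, listed in RefSeq with the synonym Nmes1 and a relative of the complex IV subunit Ndufa4, read 6.50, 6.81 and 6.72 (log2) in unstimulated WT BMM and 13.76, 13.74 and 13.15 after LPS. The difference was 6.87 (SE 0.30, limma adjusted p = 4.71e-11), or 117-fold, and in Nur77-KO BMM it was 6.55. With IL-4 it was 2.09 higher in WT and 2.21 higher in Nur77-KO BMM. Ndufa4 itself, measured by another probe, fell by 0.54 and 0.46 with LPS. Atpif1, which encodes the inhibitor of ATP synthase, differed by −0.86 and −0.85 with LPS. Ndufab1, the mitochondrial acyl carrier protein that is part of complex I, differed by −0.53 and −0.45, and Slc25a5, an ADP/ATP carrier, by −0.53 and −0.43.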
